A study of Homo sapiens with 20 samples.

Results

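The cytosolic ribosomal protein genes are the nuclear genes whose products build the large (RPL) and small (RPS) subunits of the cytoplasmic ribosome. They were taken by symbol (RPSA, RPLP0, RPLP1, RPLP2, and RPL or RPS followed by a number and at most one of the letters A, X or L) with at least 10 counts summed over the 20 libraries. The symbol rule took 81 of the 36601 genes in the table. RPL3L and RPL10L had 0 counts in every library and were dropped, which left 79 genes, 47 of the large and 32 of the small subunit. All 79 passed the filter on low counts and were tested.

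The cells were of the established breast cancer line MDA-MB-231, of human origin, in 5 groups of 4 libraries, all grown for 24 h at 37 °C, with 2 wells pooled per library. The untreated group had neither nanoparticles nor laser. The nanoparticle group was held for 4 h with 0.1 mg/ml biomimetic nanoparticles and no laser. The 46, 50 and 54 °C groups had the same nanoparticles and then 10 min of an 808 nm continuous-wave laser held at that temperature. Light without nanoparticles was not analysed here, so light and heat cannot be told apart. The labels do not say whether replicates were separate cultures, so p-values measure only the spread between these libraries. The counts come from 3′ tags of mRNA, so levels were not compared between genes.

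Ribosomal proteins assemble with ribosomal RNA in the nucleolus, and each subunit needs close to equal amounts of its proteins. Their mRNAs are abundant in dividing cells, and most begin with a cytosine followed by an unbroken run of pyrimidines, the 5′ terminal oligopyrimidine tract. Signalling through mTOR and the RNA-binding protein LARP1 controls the translation and stability of mRNAs that carry the tract.

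In RefSeq (GRCh38.p14), annotated starts were found for 63 of the 79 genes. A start with C and at least 4 more pyrimidines, read on the gene's strand only, was found at 1 or more annotated starts of 46 of the 63, or 73.0%. The same letters were found for 5.14% of all 27305 genes of that table, for 7.59% of the tested genes, and for 8.7% of 69 mitochondrial ribosomal protein genes. The genes shown here are those whose levels the results turn on, with 15 bases on each side of the start and the tract in capitals. RPS28 is shown because the letters were not at its annotated start, where an A is followed directly by a run of pyrimidines. The shares count only runs that begin exactly at an annotated start. RPS2 is named only.
RPL22: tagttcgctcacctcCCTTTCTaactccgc
RPL12: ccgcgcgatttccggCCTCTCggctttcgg
RPSA: tttcctgccgcctgtCTTTTCCgtgctacc
RPL28: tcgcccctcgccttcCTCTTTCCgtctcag
RPS12: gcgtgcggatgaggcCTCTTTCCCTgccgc
RPLP0: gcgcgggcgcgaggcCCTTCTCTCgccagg
RPLP1: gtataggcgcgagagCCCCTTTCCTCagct
RPS28: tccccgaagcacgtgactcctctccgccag
These windows lie at chr1:6199581-6199610 (minus strand) for RPL22, chr9:127451392-127451421 (minus) for RPL12, chr3:39406705-39406734 (plus) for RPSA and chr19:55385917-55385946 (plus) for RPL28. Those of RPS12, RPLP0, RPLP1 and RPS28 lie at chr6:132814554-132814583 (plus), chr12:120201097-120201126 (minus), chr15:69452803-69452832 (plus) and chr19:8321481-8321510 (plus).

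The libraries held 2401180 to 7710977 counts, and the 4 of the 54 °C group were the deepest. The line's markers VIM, CD44, KRT18, EGFR, KRT8 and S100A4 were counted in every library. SPARC had 83 counts over all 20, at 0 to 16.47 CPM. Of the markers taken as low in the line, ESR1, PGR and CDH1 had 22, 9 and 12 counts, and EPCAM had 526 (0 to 21.4 CPM). Among 9 markers of other cell types HBB had 0 counts, CD68 had the most (794, at 3.09 to 17.58 CPM), COL1A1 had 378, and PECAM1 had 71 with up to 27.18 CPM in a library. HSPA1A, a heat-inducible chaperone, averaged 28.5 CPM with nanoparticles alone and 1756.7 CPM at 46 °C, and it was called higher at 46 °C (log2 5.93 ± 0.31 SE, edgeR adjusted p = 1.47e-09) and at neither 50 nor 54 °C. In these bulk samples fewer cells and less RNA per cell cannot be told apart.

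Ribosomal protein mRNAs took 15.7% ± 0.91 (SD, n = 4) of all counts without treatment and 14.8% ± 0.21 with nanoparticles alone. With the laser they took 16.6% ± 0.74 at 46 °C, 14.7% ± 0.65 at 50 °C and 14.3% ± 0.73 at 54 °C. Every 46 °C library (15.86% to 17.54%) was above every library with nanoparticles alone (14.66% to 15.14%). The untreated libraries (14.96% to 16.84%) overlapped those at 46 °C. Mitochondrially encoded transcripts moved too, from 11.98% ± 0.63 of counts with nanoparticles alone to 4.95% ± 0.52 at 46 °C and 17.01% ± 1.95 at 50 °C. With those transcripts left out of the total, the ribosomal protein share was 16.9% ± 0.25 with nanoparticles alone, 17.5% ± 0.79 at 46 °C and 17.7% ± 0.43 at 50 °C, and the 46 °C libraries then overlapped those with nanoparticles alone. Every 50 °C library (17.24% to 18.24%) was then above every library with nanoparticles alone (16.68% to 17.22%). The untreated libraries (16.42% to 19.25%, mean 17.7%) spanned the whole 50 °C range. No p is given for a sum over the family, because the family was chosen with results of these data known.

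**Figure D1:**
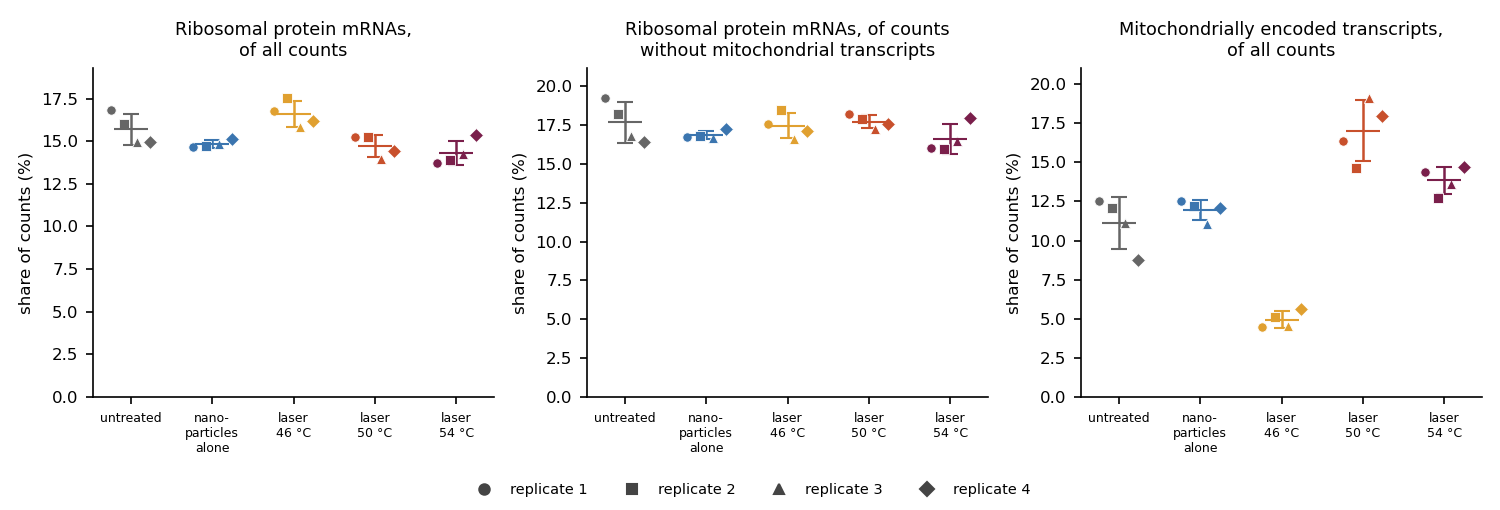
Share of counts (%) on the 79 ribosomal protein mRNAs, of all counts (left) and of counts without mitochondrially encoded transcripts (middle), and the share on mitochondrially encoded transcripts (right); points are libraries by replicate, bars the mean ± SD of 4. The 46 °C group is highest at left (16.6%) and lowest at right (4.95%).

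Of the 79 genes, 8 differed somewhere among the 5 groups, among them RPL12, RPL22, RPS2, RPSA, RPLP0, RPL28 and RPS12 (edgeR adjusted p from 0.0192 to 0.0438 for these), where 2.40% of all 12149 tested genes did. With library totals 19 members did (3.85% of all genes). Without 1 library the count was 1 to 9: 1 without 50 °C replicate 4, and 2 to 5 without nanoparticle-alone replicate 3, 46 °C replicates 1 or 2, 50 °C replicates 1, 2 or 3, or 54 °C replicates 1 or 3. Pairwise, 9 genes were called in at least 1 comparison, and those described here had log2 differences between 0.39 and 0.50 in size. The pairwise comparisons that share a control group are not independent of each other. Shares over all genes cover genes down to the filter's count of 10, while member totals ran from 2783 (RPL39L) to 486871 (RPS27A). Members of a library also share its preparation and depth. Member counts beside those shares are therefore a description and not a test of the family. Counts of calls depended on how libraries were scaled, so pairwise counts over all 4 replicates are given with TMM factors and with library totals. The main fit, on 5 group means, held no term for replicates 3 and 4 against 1 and 2. With that term 8 members (263 genes) were called at 46 °C and 8 (329 genes) at 50 °C against nanoparticles alone. Without it 1 (117 genes) and 3 (144 genes) were called.

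Nanoparticles alone against untreated cells gave no called member, and 0% of all genes were called by edgeR with either scaling or by DESeq2. At an unadjusted p under 0.05 there were 4 members and 3.95% of all genes. No member lay wholly above and 4 lay wholly below the untreated libraries (1.3% and 1.44% of all genes). The median member log2 difference was −0.10 against 0.00 over all tested genes, with 20 members above and 59 below 0. It was −0.22 within replicates 1 and 2 and 0.03 within replicates 3 and 4, so the direction of the family was not shared by the pairs. Without untreated replicate 1, whose ribosomal protein share was the highest of its group (16.84%), the median was −0.03.

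At 46 °C, RPL22 was the only member called by the main fit against nanoparticles alone. Of all genes 0.617% were called higher and 0.346% lower. RPL22 is an RNA-binding protein of the large subunit, encoded at chr1:6185020-6209389 on the minus strand. Its level was 1207.3, 1370.5, 1038.5 and 1143.3 CPM at 46 °C and 901, 969.8, 788 and 792.6 CPM with nanoparticles alone. The groups did not overlap, and the difference was log2 0.46 ± 0.10 (SE, edgeR adjusted p = 0.00734). The difference was 0.46 within replicates 1 and 2 and 0.46 within replicates 3 and 4, and both were called. The call was lost without nanoparticle-alone replicate 4 or without 46 °C replicate 2 (adjusted p up to 0.0876).

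Over all 79 members, RPL22 included, the median difference at 46 °C was 0.15 against 0.01 over all genes, with 59 members above and 20 below 0. By library values, 18 members did not overlap upward and 4 downward, where 3.69% and 3.26% of all genes did not overlap. The median was 0.22 within replicates 1 and 2 and 0.05 within replicates 3 and 4, and 0.08 without 46 °C replicate 2. RPS27L, a p53-inducible paralog of RPS27, had the highest member difference, 0.49 ± 0.14, and did not pass (edgeR adjusted p = 0.0869). RPL18 had the lowest, −0.34 ± 0.12 (adjusted p = 0.189). Scaled by library totals, 7 members were called higher (RPL22, RPS7, RPL34, RPS12, RPS10, RPL6 and RPL41) and none lower, where 95 genes in all (0.782%) were called higher and 33 (0.272%) lower, against 75 and 42 with TMM.

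At 50 °C, 3 members, RPL12 and RPSA among them, were called higher than with nanoparticles alone and no member was lower, where 0.527% of all genes were called higher and 0.658% lower. RPL12, which sits at the base of the ribosome's P-stalk (chr9:127447674-127451405, minus strand), measured 1713.1, 1653.1, 1843.7 and 1761.2 CPM at 50 °C and 1188.5, 989, 1332.8 and 1420.9 CPM with nanoparticles alone. All 50 °C libraries were above all control libraries, by log2 0.50 ± 0.10 (edgeR adjusted p = 0.00277). The call held with library totals (0.38, adjusted p = 0.0293) and was lost without nanoparticle-alone replicate 2 (0.0514). RPL12 was also 0.20 higher in replicates 3 and 4 than in 1 and 2 over all groups.

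RPSA, a small-subunit protein also known as a laminin receptor (chr3:39406689-39412542, plus strand), measured 1498.7, 1507, 1370.2 and 1434.7 CPM at 50 °C and 1086.7, 1206.5, 976.4 and 1119 CPM with nanoparticles alone. The groups did not overlap (log2 0.40 ± 0.10, edgeR adjusted p = 0.0233). RPSA did not pass with library totals (adjusted p = 0.102). It also lost its call without any of nanoparticle-alone replicates 1, 3 and 4 and 50 °C replicates 1, 2 and 4 (adjusted p up to 0.121).

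With TMM the median member at 50 °C was 0.10 above nanoparticles alone (all genes 0.02), and 14 members did not overlap upward and 0 downward, where 4.21% and 4.12% of all genes did not overlap. With library totals the median of all genes was −0.10 and that of the members −0.02. This change of scaling shifts every gene alike. Library totals called 1 member higher (RPL12) and 0 lower, with 50 genes (0.412%) higher and 229 (1.88%) lower in all, against 64 and 80 with TMM. Within replicates 1 and 2, 10 members were called, all higher, and within replicates 3 and 4 none was (median 0.12 and 0.08). Of all genes 0.764% were called higher and 0.998% lower in the first pair, and 0.33% and 0.174% in the second.

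At 54 °C the main fit called no member against nanoparticles alone, with 4 at an unadjusted p under 0.05 (5.75% of all genes). Of all genes 0.0741% were called higher and 0.0494% lower by edgeR. The median member was −0.03 (all genes 0.01), and 2 members did not overlap upward and 0 downward, where 2.2% and 2.09% of all genes did not overlap. The median was −0.10 within replicates 1 and 2 and 0.05 within replicates 3 and 4, so the pairs differed in sign. With library totals it was −0.06 (all genes −0.02), and 0 members, 0.0576% of all genes higher and 0.0494% lower were called. RPLP0, the protein that anchors the P-stalk, was 0.33 ± 0.09 higher (edgeR adjusted p = 0.190), close to its difference of 0.33 ± 0.09 at 50 °C (adjusted p = 0.0523).

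Between laser temperatures, 50 against 46 °C gave 3 members higher (RPL28 and RPS28 among them) and 1 lower (RPS12), where 0.584% of all genes were called higher and 0.609% lower.

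RPL28, a large-subunit protein whose gene (chr19:55385345-55403250, plus strand) overlaps UBE2S on the other strand, measured 804.3, 673.4, 768.6 and 747.2 CPM at 50 °C and 474.4, 510.6, 538.4 and 593.2 CPM at 46 °C. No 46 °C library reached a 50 °C one (log2 0.50 ± 0.11, edgeR adjusted p = 0.00426), and the call held without each of the 8 libraries but not with library totals (adjusted p = 0.0659). RPS28, which lies near the mRNA exit of the small subunit (chr19:8321158-8323340, plus strand), measured 2543.9, 2229.7, 2425.2 and 2267.2 CPM against 1785.6, 1581.6, 1830.2 and 2037 CPM. That is log2 0.39 ± 0.09 (edgeR adjusted p = 0.0169). The RPS28 call was lost with library totals (0.208) and without 46 °C replicates 1 or 2 or 50 °C replicates 1 or 3. With nanoparticles alone RPL28 averaged 643 CPM, between its 46 and 50 °C means (529.2 and 748.4). RPS28 averaged 2199.5 CPM there, also between its 46 and 50 °C means (1808.6 and 2366.5). The RPS28 span overlaps NDUFA7 and KANK3 on the other strand, and the strand setting of the counting is not given in the sources used here.

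RPS12, of the small-subunit head (chr6:132814441-132817564, plus strand), went the other way, with 2389.9, 2299.8, 2120.6 and 2442.5 CPM at 50 °C and 3170.7, 3509.4, 2643.1 and 2847.1 CPM at 46 °C. The groups did not overlap, and RPS12 fell by 0.40 on the log2 scale (SE 0.10, edgeR adjusted p = 0.0220). RPS12 averaged 2431.4 CPM with nanoparticles alone, 3042.6 CPM at 46 °C and 2313.2 CPM at 50 °C. The call was lost without 46 °C replicates 1 or 2 or 50 °C replicates 2 or 3. The family split in this comparison, with 13 members not overlapping upward and 8 downward (3.70% and 3.41% of all genes) and a median of −0.01 (all genes 0.00), which was −0.03 and 0.03 within the pairs of replicates. With library totals the median of all genes was −0.18, the members' was −0.18, and 1 member was called higher and 18 lower, with 46 genes (0.379%) higher and 374 (3.08%) lower in all against 71 and 74 with TMM.

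From 50 to 54 °C, RPS2 alone was called by the main fit, lower, where 0.0576% of all genes were called higher and 0.140% lower. RPS2, a small-subunit protein at the mRNA entry channel (chr16:1962052-1964860, minus strand), measured 1719.5, 1657.3, 2043.9 and 2095.1 CPM at 54 °C and 2539.2, 2401.9, 2658.9 and 2443.1 CPM at 50 °C. All 54 °C libraries were below all 50 °C libraries, and RPS2 fell by 0.42 on the log2 scale (SE 0.09, edgeR adjusted p = 0.0173). RPS2 averaged 2065.9 CPM with nanoparticles alone, 2510.8 CPM at 50 °C and 1879 CPM at 54 °C. With library totals it did not pass (adjusted p = 0.112), nor without any of 50 °C replicates 1, 3 and 4 and 54 °C replicates 1 and 2. In all, 18 members did not overlap downward and 0 upward, where 2.66% and 2.47% of all genes did not overlap. The median member was −0.11 (all genes −0.01). It was −0.22 within replicates 1 and 2, with 78 of 79 members below 0, and −0.01 within replicates 3 and 4, with 42 below 0. It was −0.02 (all genes 0.09) with library totals, which called 0 members and 22 genes (0.181%) higher and 16 (0.132%) lower, against 7 and 17 with TMM.

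From 46 to 54 °C, RPL22 was called lower, at 921.7, 833.5, 920 and 921.6 CPM against the 46 °C values above, where 0.239% of all genes were called higher and 0.395% lower. RPL22 fell by 0.40 (SE 0.10, edgeR adjusted p = 0.0417). The call was kept only without 46 °C replicate 3, and was lost without 46 °C replicates 1, 2 or 4 or any 54 °C replicate. Library totals called 10 members lower and 0 higher, with 21 genes (0.173%) higher and 81 (0.667%) lower in all, against 29 and 48 with TMM. Without overlap there was 1 member above and 6 below, where 2.68% and 3.05% of all genes did not overlap. Within replicates 1 and 2, 29 members were called, all lower (median −0.27), and within replicates 3 and 4 none was (median 0.02). Of all genes 0.66% were called higher and 1.07% lower in the first pair, and 0.124% and 0.231% in the second. The difference between the pairs was itself called for 2 members, RPS12 and RPL23, where 0.0494% of all genes were. Over all groups, 3 members were called higher in replicates 3 and 4 than in 1 and 2 and 10 lower, where 4.18% and 4.65% of all genes were.

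**Figure D2:**
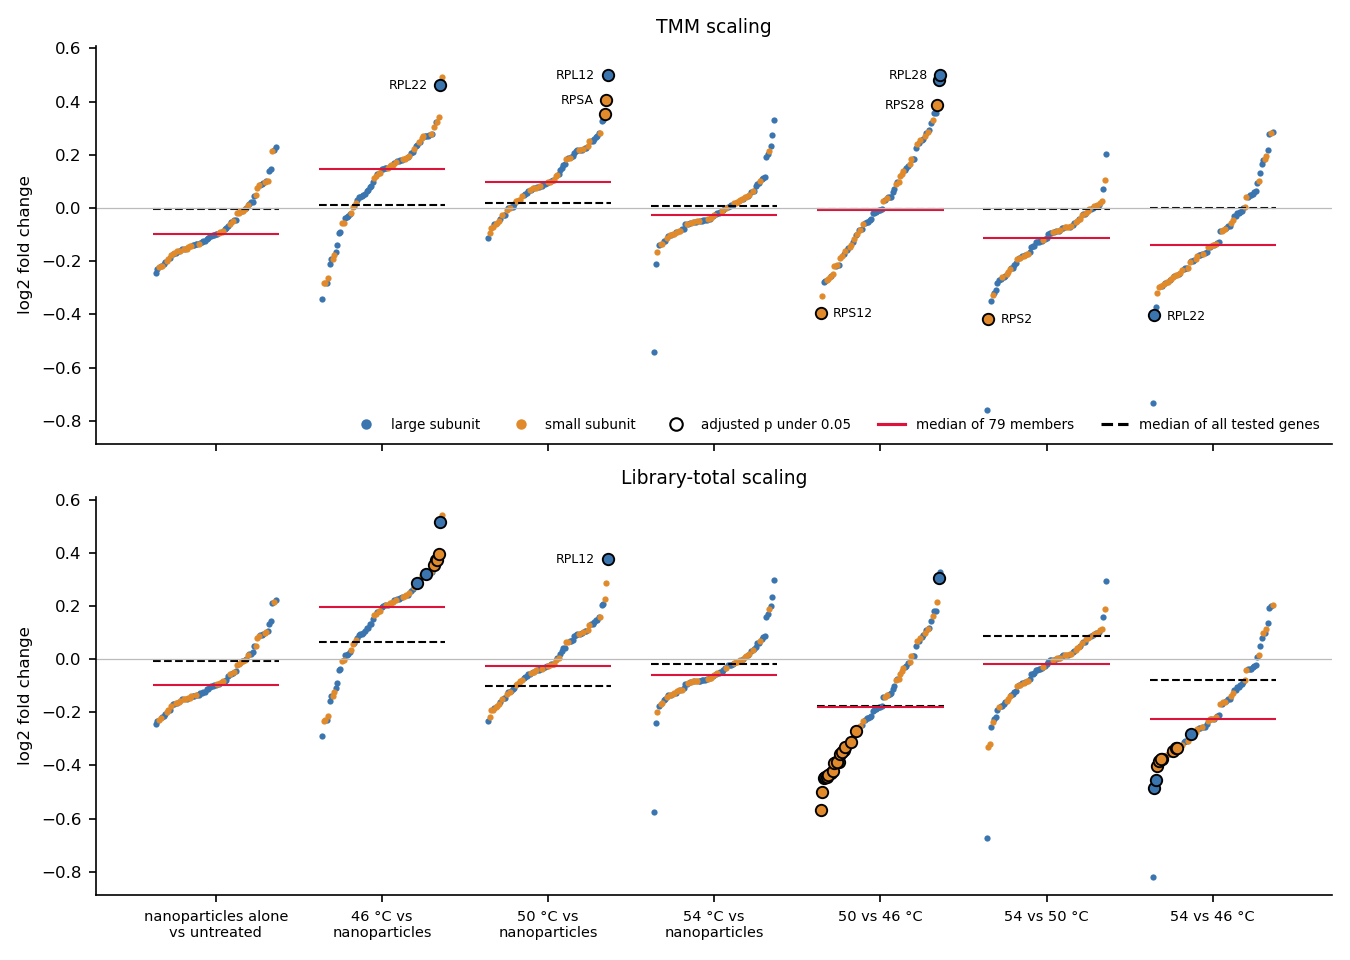
Log2 fold change of the 79 genes in each comparison, sorted within it, with TMM scaling (top) and library totals (bottom); blue is the large and orange the small subunit, outlined points passed, the red line is the members' median and the dashed line that of all tested genes. At 50 against 46 °C the members' median is −0.01 at top and −0.18 at bottom.

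**Figure D3:**
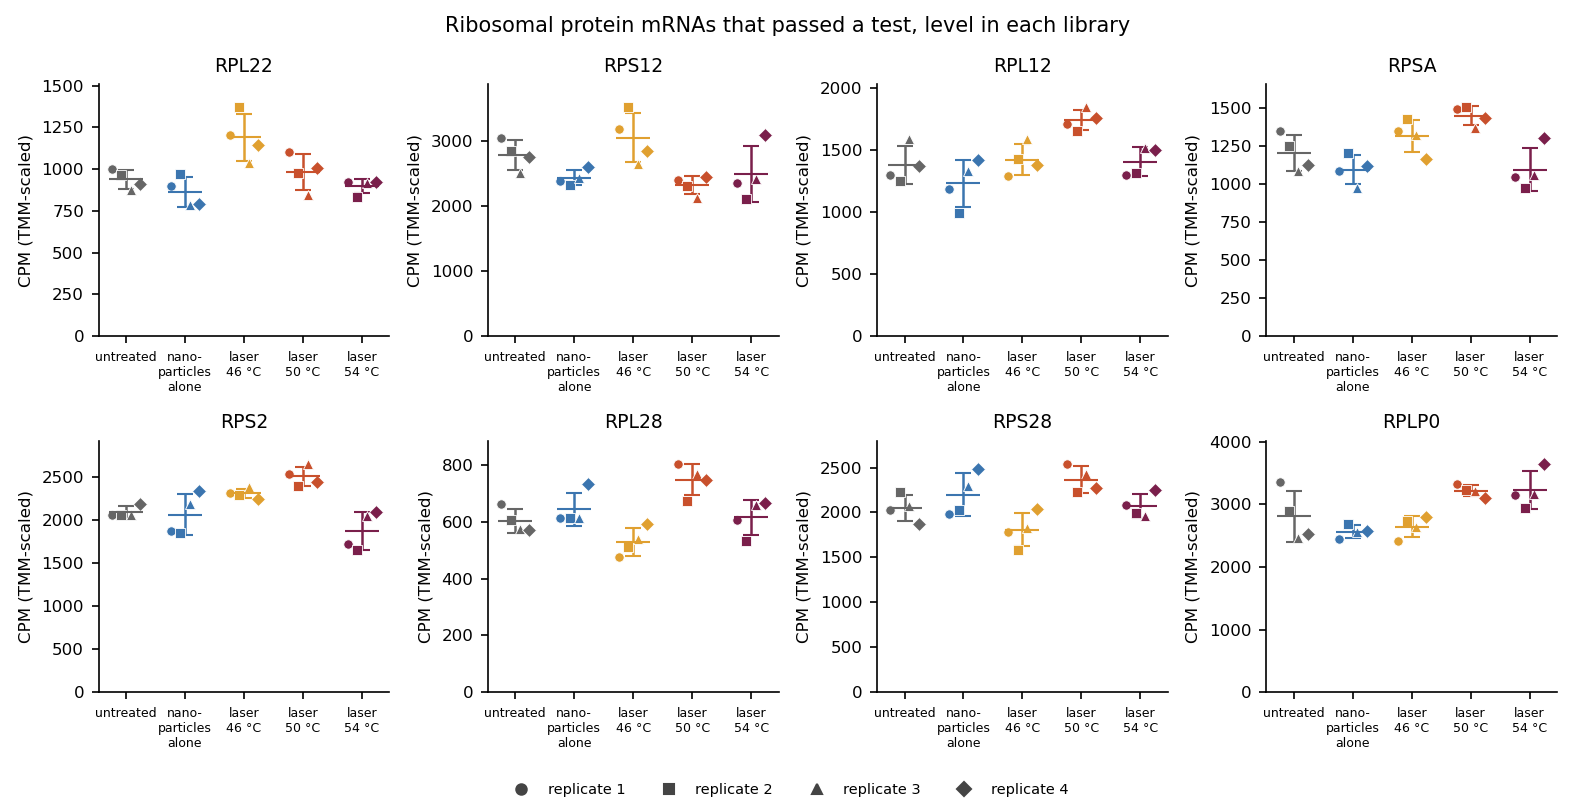
TMM-scaled CPM in each library for 8 genes that passed a pairwise test or the test over all 5 groups; points are libraries by replicate, bars the mean ± SD of 4, axes start at 0. RPL12, RPSA and RPS2 have their highest mean at 50 °C, and RPL22 and RPS12 at 46 °C.

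Among the P-stalk genes, RPLP0 passed the test over all 5 groups (edgeR adjusted p = 0.0290). Its mean was 2806.7 ± 411 CPM (SD) in untreated cells and 2563.2 CPM for nanoparticles alone. Its laser means were 2644.9 CPM (46 °C), 3219.2 CPM (50 °C) and 3222.4 CPM (54 °C). Untreated replicate 1, at 3348.6 CPM, was above every 50 °C library (3106.8 to 3326.4 CPM). RPLP1 (chr15:69452784-69456194, plus strand) varied widely between libraries. It lay between 2015.3 and 2329.4 CPM in 6 libraries, namely all of the 54 °C group, nanoparticle-alone replicate 4 (2092.9) and 46 °C replicate 2 (2216.3). It was 2743.1 and 2801 CPM in 50 °C replicates 1 and 3, and between 3450.7 and 4872.5 CPM in the other 12. At 54 °C it was −0.54 ± 0.23 against nanoparticles alone and did not pass (adjusted p = 0.817). RPLP2 did not pass in any of the 7 comparisons of 4 libraries against 4.

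**Figure D4:**
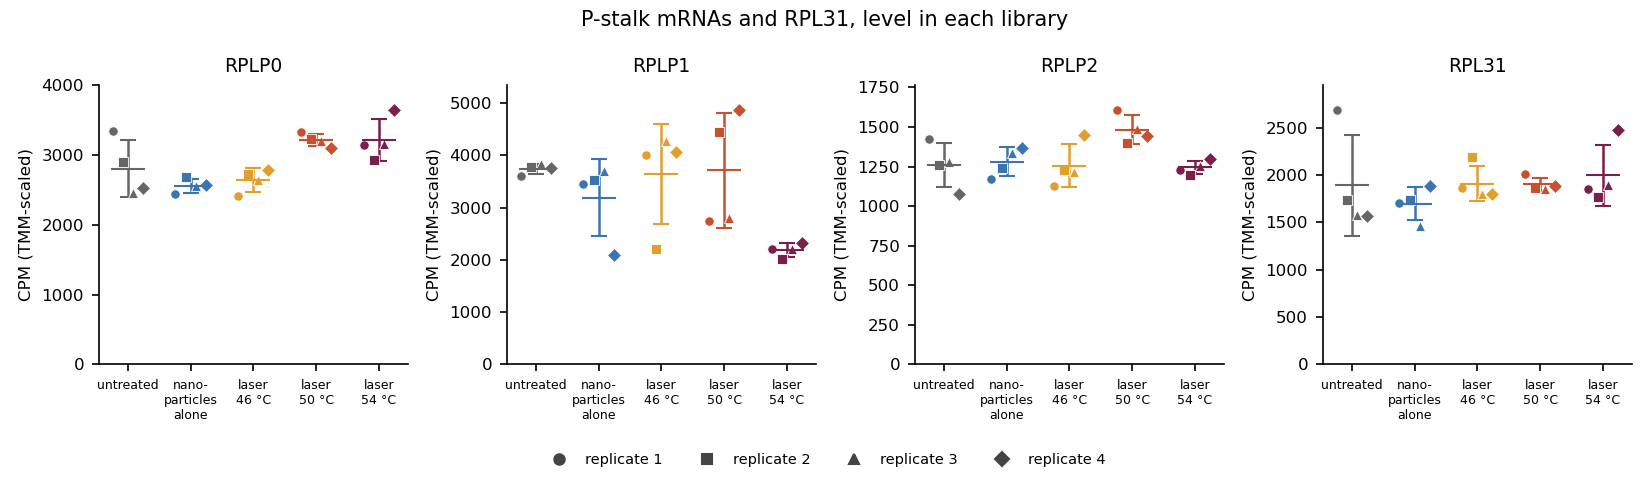
TMM-scaled CPM of RPLP0, RPLP1, RPLP2 and RPL31 in each library, with the mean ± SD of 4. RPLP1 is low in all 54 °C libraries (2015.3 to 2329.4) and in single libraries of other groups, and RPL31 is highest in untreated replicate 1 (2685.6).

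RPL5 and RPL11, which with 5S rRNA form a particle that can bind MDM2, did not pass in any comparison, and their differences from nanoparticles alone ran from −0.06 to 0.15. RPS6, the S6 kinase substrate, was 0.19 ± 0.08 higher at 50 °C (edgeR adjusted p = 0.351). RPL3, near the peptidyl-transferase centre, was 0.33 ± 0.13 higher (adjusted p = 0.261).

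Related genes outside the symbol rule gave few calls. RACK1, a scaffold bound to the small subunit, rose by 0.45 ± 0.10 from 46 to 50 °C (edgeR adjusted p = 0.00568). The paralogs RPL22L1, RPL26L1, RPL36AL and RPL7L1 had no call. Of 78 mitochondrial ribosomal protein genes, MRPL33 rose at 46 °C (0.60 ± 0.13, adjusted p = 0.00345), and MRPL14 and MRPL3 fell from 46 to 50 °C (by 0.56 and 0.66).

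Of 22 other mRNAs known for the tract, EIF4A2, an RNA helicase of translation initiation, rose at 50 °C by 1.501 ± 0.13 (edgeR adjusted p = 5.04e-12), and PABPC1, the poly(A)-binding protein, by 0.45 ± 0.11 (0.0270). The list's median there was 0.09, beside 0.10 for the ribosomal protein genes. None of 18 regulators of such mRNAs, LARP1 and MTOR among them, was called in any comparison. Of 17 ribosome rescue and quality control genes, G3BP1 fell at 50 °C by 0.55 ± 0.15 (adjusted p = 0.0395), and none of 8 chaperones of single ribosomal proteins was called.

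Several of the genes hold other RNAs. In GENCODE v29 (GRCh38), 28 of the 79 span a small nucleolar RNA on their own strand, and their median at 50 °C against nanoparticles alone was 0.21, beside 0.08 for the other 51. The same medians were −0.10 and −0.10 for nanoparticles alone against untreated cells, 0.15 and 0.13 at 46 °C and 0.01 and −0.05 at 54 °C against nanoparticles alone. Between temperatures they were 0.09 and −0.02 (50 against 46 °C), −0.16 and −0.09 (54 against 50 °C) and −0.11 and −0.15 (54 against 46 °C). RPL12 and RPSA, called at 50 °C, span 1 and 2, and RPL22 spans none. RPL28 and RPS28, called higher at 50 than at 46 °C, span 0, and RPS12, called lower there, spans 3. RPS2, called lower at 54 than at 50 °C, spans 2. The annotation also lists 1132 pseudogene copies named for members, none of which is in the count table, so reads that match both cannot be assigned with certainty.

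Fold changes within the family varied with base composition, by an amount and a sign that differed between comparisons. Over the 79 genes, GC content of the coding sequence (42.1% to 63%) and log2 fold change had a Spearman rho of 0.57 for nanoparticles alone against untreated cells, −0.50 for 46 °C and 0.20 for 50 °C against nanoparticles alone, and 0.57 for 50 against 46 °C. Over 11276 tested genes the values were 0.11, −0.10, 0.15 and 0.26. The relation had the same sign within replicates 1 and 2 and within 3 and 4 in each of these 4 (0.44 and 0.42, −0.47 and −0.49, 0.21 and 0.14, 0.54 and 0.49). For 54 °C against nanoparticles alone rho was −0.27, with −0.01 in the first pair, −0.37 in the second and 0.03 over all tested genes. It was −0.38 for 54 against 50 °C (−0.20 and −0.37 in the pairs, −0.14 over all genes) and 0.43 for 54 against 46 °C (0.44 and 0.31, 0.14 over all genes). These rho come without a p, since genes of a library share its preparation and depth. Comparisons that share a group are not independent. A group that is first in one comparison and the control in another moves their slopes in opposite directions. The same holds within each pair of replicates.

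The choice of the coding sequence was made after values were seen. Length was the feature planned, GC was added later, and whole transcripts were used first. Coding length had a rho of 0.39 with the difference at 50 °C against nanoparticles alone, above the 0.20 of GC there, and 0.36 at 50 against 46 °C (0.05 and 0.14 over all tested genes). It was 0.03 for nanoparticles alone against untreated cells, −0.11 at 46 °C and 0.20 at 54 °C against nanoparticles alone, −0.19 for 54 against 50 °C and 0.27 for 54 against 46 °C. Because some chosen transcripts were implausibly long (up to 7686 bases), the coding sequence replaced them, and this made the GC relation larger. With GC of the whole transcript the same 4 values were 0.43, −0.34, 0.14 and 0.43, and with its last 300 bases 0.40, −0.35, 0.11 and 0.41. In all, 5 features were set against 7 comparisons, 35 values. RPL28 and RPS28, called higher at 50 than at 46 °C, have 59.6% and 62.3% GC, and RPS12, called lower, has 46.7%. RPL22, called higher at 46 °C than with nanoparticles alone, has 44.3%. RPL12 and RPSA, called higher at 50 °C than with nanoparticles alone, have 51.9% and 52.8%, close to the members' median of 51.1%. RPS2, called lower at 54 than at 50 °C, has 61.8%. The part of base composition in these differences was not tested.

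**Figure D5:**
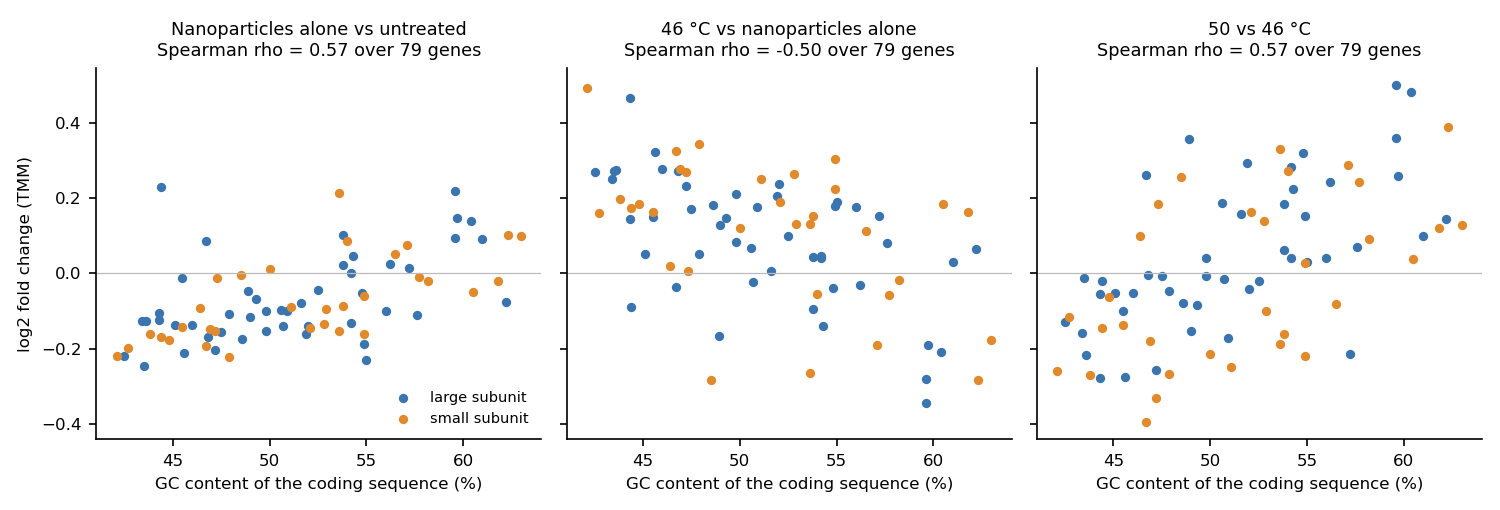
Log2 fold change (TMM) against GC content of the coding sequence (%) for the 79 genes in 3 comparisons; each point is a gene, blue for the large and orange for the small subunit. The slope is upward at left and right (rho 0.57) and downward in the middle (rho −0.50). Neighbouring panels share a group with opposite sign, so their slopes are not independent.

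RNAs listed as possible signs of RNA quality moved between the groups as well. No measure of RNA integrity was among the values used here, so whether RNA quality differed was not tested. Of the nuclear long noncoding RNAs MALAT1, NEAT1 and KCNQ1OT1, 3 were called higher at 46 °C, 2 at 50 °C and 2 at 54 °C against nanoparticles alone. Of 13 mitochondrially encoded mRNAs, 9 were called lower at 46 °C and 6 higher at 50 °C. Of 29 tested histone genes, many of whose mRNAs lack a poly(A) tail, 3 were called higher at 50 °C against nanoparticles alone (median 1.86), 2 higher at 50 against 46 °C (median 1.04) and 1 lower at 54 against 50 °C, and none in the other 4 comparisons. Their part in the ribosomal protein differences was not tested.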

How the data were processed

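The deposited table holds expected counts per gene, as the authors deposited them. The submitters' processing notes name STAR, Salmon and the build GRCh38. Versions, annotation, strand setting and any molecular identifiers were not given in the sources used here. Values were rounded to whole numbers (1.74% to 2.9% per library were not whole). Tests used edgeR 4.0.16 (robust quasi-likelihood, TMM) in R 4.3.3 on 5 group means over all 20 libraries. The expression filter (a count of 10 in enough libraries, total 15) kept 12149 genes. Adjusted p-values are Benjamini-Hochberg over all of these, called under 0.05. CPM are TMM-scaled. Depth bounds counting error only, and standard errors rest on the spread between libraries.

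The members and lists were chosen with earlier results of these data known. Named members are all called ones (up to 10 per direction and comparison), the 3 most extreme with at least 10 CPM where fewer than 3 were called, and a fixed set (RPL22, RPL12, RPSA, RPS2, RPLP0, RPLP1, RPLP2, RPL5, RPL11, RPS6, RPL3, RPS27L). Non-members come from fixed lists. Values of some genes under this rule are not reported here, while family counts include them. GC content, the coding sequence in place of the transcript, GC within replicate pairs, and TMM from the other genes were chosen after seeing the data. RPLP1's low libraries were also noticed after its values were seen. Alternatives were library totals, DESeq2 1.42.0 and its size factors, no filter, a replicate block, a replicate-pair term, each pair alone, and leaving out each library. The fit was tested on simulated counts. Python 3.11.15, pandas 2.3.3, numpy 2.4.6 and matplotlib 3.10.9 were used for sequences and figures.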

Additional observations from a re-analysis of the deposited data

Results flagged for a closer look

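Single libraries stood apart in 11 of 135 sets of 4 (27 named genes in 5 groups, 8.1%) by Dixon's test. The test's nominal rate of about 1 in 20 is for independent sets, and these sets share libraries. Some of the genes were named for calls or extreme differences, and no share over all tested genes is given. RPLP1 was low at 2092.9 CPM in nanoparticle-alone replicate 4 (others 3450.7 to 3702.3) and at 2216.3 CPM in 46 °C replicate 2 (others 4012.6 to 4273.9). RPL31 was high at 2685.6 CPM in untreated replicate 1 (others 1564 to 1734.1). RPL39L was high at 40.2 CPM in untreated replicate 4 and at 53.2 CPM in 54 °C replicate 3. RPL18 was high at 1624.2 CPM in 50 °C replicate 3 and RPL28 at 731.5 CPM in nanoparticle-alone replicate 4. RPS2 was high at 2192.5 CPM in untreated replicate 4 and RPS7 at 1691.6 CPM in 54 °C replicate 4. RPL22 was low at 833.5 CPM in 54 °C replicate 2, and RPL5 was low at 2416 CPM in nanoparticle-alone replicate 2.

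The 54 against 46 °C difference was not the same in the 2 pairs of replicates for 2 genes, by an edgeR interaction test. The log2 difference in replicates 3 and 4 minus that in replicates 1 and 2 was 0.594 for RPS12 and 0.646 for RPL23.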

How the results depend on the processing

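Counts of called members were few and moved with the settings; the cause was not tested. In the order 46, 50 and 54 °C against nanoparticles alone, 50 against 46, 54 against 50 and 54 against 46 °C, edgeR with TMM called 1, 3, 0, 4, 1 and 1 members and 117, 144, 15, 145, 24 and 77 genes. Library totals called 7, 1, 0, 19, 0 and 10 members (279, 420 and 38 genes in all at 50 °C against nanoparticles alone, 50 against 46 and 54 against 50 °C), with medians of −0.024 at 50 °C against nanoparticles alone and −0.179 at 50 against 46 °C. DESeq2 called 7, 5 and 4 members in the last 3 and 192, 288, 36, 277, 60 and 128 genes. Without the filter, 0 members were called at 54 against 46 °C, 38 genes at 54 °C, and 2 for nanoparticles alone.

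The replicate block called 8, 9, 1, 12, 6 and 5 members and 269, 337, 46, 353, 67 and 160 genes. Same-numbered libraries correlated at 0.022 to 0.066, under the 0.1 required, so the numbers were not taken to pair them. Even so, 2 of 8 libraries correlated best with their own number for nanoparticles alone against untreated cells. It was 4, 4 and 7 of 8 at 46, 50 and 54 °C against nanoparticles alone. For 50 against 46, 54 against 50 and 54 against 46 °C it was 5, 6 and 5 of 8. The main fit held no term for replicate number or pair, and what the numbers share was not tested. The correlation of same-numbered libraries does not address the division between replicates 1 and 2 and replicates 3 and 4. A term for the replicate pair called 8, 8, 1, 14, 6 and 5 members and 263, 329, 42, 341, 69 and 160 genes. Replicates 1 and 2 alone called 18, 10, 0, 7, 3 and 29 members and 261, 219, 15, 236, 38 and 215 genes; replicates 3 and 4 alone called 1, 0, 1, 2, 0 and 0 members and 64, 61, 22, 75, 22 and 43 genes. Medians in those pairs were −0.223 and 0.033 for nanoparticles alone, 0.223 and 0.052 at 46 °C, and −0.265 and 0.019 at 54 against 46 °C. For nanoparticles alone the pairs called 4 and 2 genes.

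Leaving out 1 library gave 0 to 2, 1 to 2, 0 to 0, 2 to 4, 0 to 2 and 0 to 2 members and 81 to 127, 80 to 122, 8 to 16, 96 to 139, 18 to 29 and 49 to 79 genes, 0 to 1 genes for nanoparticles alone, and medians of 0.076 to 0.164 at 46 °C. Over the 5 groups, 8 members (292 genes) were called, 19 (468) with library totals, 16 (628) with the block, 17 (625) with the pair term and 1 to 9 (208 to 312) without 1 library. The pair difference was called for 2 members, 3 without the filter and 1 with DESeq2. Shares without mitochondrial transcripts were 17.671, 16.861, 17.455, 17.726 and 16.608%. TMM from the other genes, added after seeing the data, moved no count by over 1.5 times.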

Other observations

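Replicates 3 and 4 differed from replicates 1 and 2 over all groups, a division the labels do not explain. Among the ribosomal protein genes that passed (edgeR), RPL3 was 0.32 ± 0.06 (SE) higher (adjusted p = 4.86e-05) and RPL12 0.20 ± 0.05 higher (0.00501). RPL23A fell by 0.29 ± 0.04 (4.61e-07), RPL24 by 0.33 ± 0.06 (7.81e-06) and RPL38 by 0.23 ± 0.05 (0.00027).

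The relation between GC content of the coding sequence and a gene's deviation from its own mean differed between libraries. Over the 79 genes Spearman's rho ran from −0.56 to −0.16 in the 4 libraries at 46 °C and from 0.28 to 0.50 in the 4 at 50 °C. It ran from −0.47 to 0.11 in untreated libraries, from 0.03 to 0.47 with nanoparticles alone and from −0.05 to 0.16 at 54 °C. Over 11276 tested genes rho ran from −0.13 to −0.03 at 46 °C and from 0.13 to 0.15 at 50 °C. In the other groups it ran from −0.10 to 0.13 over those genes. These values were computed after the relation between groups had been seen.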
